A study of Danio rerio with 3 samples.

Results

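The genes described here encode the proteasome and the enzymes that attach, remove and handle ubiquitin in zebrafish. They were taken by symbol from the mRNA entries of the expression table (names starting with psma to psmg and a digit, ube2, uba or usp and a digit, ubb, vcp, nploc4 or ufd1, and 1 further name). This gave 114 of the 19811 named mRNA genes, of which 48 were proteasome genes and 65 were ubiquitin genes. The last, psmc3ip, encodes a protein named for its interaction with Psmc3. It is not a proteasome subunit, and it was kept apart.

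The study exposed wild-type Tuebingen zebrafish embryos to BDE47, a brominated flame retardant, dissolved in DMSO, and asked which transcripts responded to it. Exposure started at 3 to 4 hours post fertilization and whole larvae were taken at 6 days post fertilization. The groups used here were 0.1% DMSO vehicle, the solvent that all of them received, 5 μg/L BDE47 and 500 μg/L BDE47. Each group was a pool of about 60 larvae sequenced as 1 library.

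With 1 library per group no difference between libraries had a replicate check in the sequencing, and no test between groups was possible. The paper also measured some genes by quantitative PCR (RT-qPCR) on separate batches of larvae. Of the genes named below these were opn1sw1 and hsp70, and none was a proteasome or ubiquitin gene. Values are read counts per gene scaled by trimmed mean of M-values (TMM) normalization, here called normalized counts. A fold change is the ratio of these values between 2 libraries. Its 95% interval in brackets is an exact Clopper-Pearson interval on the recovered reads and covers counting error only. Reads of PCR products are not independent molecules. Fragments were sequenced from both ends, and whether both reads of a fragment were counted is not given in the sources used here. If they were, the intervals are too narrow. A gene counted as changed where this ratio reached 2, or 0.5 and below, provided that 1 library or both held 10 or more normalized counts. In whole larvae, fewer cells of a type and less RNA per cell cannot be told apart.

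Ubiquitin is a small protein that marks other proteins. An activating enzyme (E1), a conjugating enzyme (E2) and a ligase (E3) attach it in turn, and deubiquitinases such as the Usp proteins remove it. Chains of ubiquitin send a protein to the proteasome, a barrel of alpha and beta rings (the 20S core) capped by a particle (19S) that binds the chain, unfolds the protein with a ring of ATPases and feeds it into the core. The whole route removes damaged, misfolded and short-lived proteins in every cell, and the genes of its core and cap are active in all tissues.

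The reads counted on the entries of the expression table numbered 41474296 with DMSO vehicle, 30463582 with 5 μg/L and 27004647 with 500 μg/L. These are fewer than the total reads per sample that the paper gives. In the same order 1 read was worth 0.79, 1.09 and 1.25 normalized counts. All 114 genes were detected in every library. Their median was 1688 reads with DMSO vehicle, 1184 with 5 μg/L and 1306 with 500 μg/L, and the least covered gene had 18, 19 and 8 reads in that order. All 14 markers of larval tissues that were searched were detected in the 3 libraries. At 500 μg/L 5 of them were at least 2-fold lower than in DMSO vehicle, against 4.74% of all genes with enough counts. These were opn1sw1 of cones (0.198-fold), fabp10a of liver (0.395-fold), ela2 of pancreas (0.434-fold), and krt4 and krt5 of skin (0.445-fold and 0.478-fold). For opn1sw1 the paper's RT-qPCR gave a smaller decrease. Further markers of liver and pancreas, tfa and try, were at 0.706 and 0.663. Those of red cells, hbae1 and hbbe2, were at 1.56 and 1.64. Of the 14 markers 10 were lower and 4 higher. The part of these tissue markers in the values below was not tested.

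Proteasome genes as a group were higher at 500 μg/L than in DMSO vehicle, and ubiquitin genes were much less so. The 48 proteasome genes summed to 133494 normalized counts at 500 μg/L and to 84611 in DMSO vehicle, a ratio of 1.58 (1.56 to 1.59). They took 0.481% of the reads on named genes at 500 μg/L and 0.313% in DMSO vehicle. The 65 ubiquitin genes summed to 258742 at 500 μg/L and 202633 in DMSO vehicle, a ratio of 1.28 (1.27 to 1.28). The polyubiquitin gene ubb supplied most of this difference, and the other 64 ubiquitin genes summed to 195496 at 500 μg/L and 180917 in DMSO vehicle, a ratio of 1.08 (1.07 to 1.09). Leaving size aside, 40 of 48 proteasome genes and 38 of 65 ubiquitin genes were higher at 500 μg/L, where 48.9% of all 17755 genes with enough counts were.

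The median log2 fold change at 500 μg/L over DMSO vehicle was 0.63 for proteasome genes and 0.15 for ubiquitin genes, a difference of 0.48, beside -0.02 for all genes. At least 1.5-fold higher were 27 of 48 proteasome genes (56.2%) and 9 of 65 ubiquitin genes (13.8%), against 17% of all genes. At least 1.5-fold lower were 4 proteasome genes and 0 ubiquitin genes, against 14.9% of all genes. The 2-fold threshold gave another picture. It was passed upwards by 3 of 48 proteasome genes (psme3, psmb3 and psmc1b) and 3 of 65 ubiquitin genes (ube2d2, ubb and ube2d1), shares of 6.25% and 4.62% that lie close to the 7.4% of all genes. Downwards it was passed by 2 proteasome genes, psmb9a and psmb11, and 4.74% of all genes. Of the 27 proteasome genes that were at least 1.5-fold higher, all but psme3, psmb3 and psmc1b stayed under 2-fold.

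**Figure D1:**
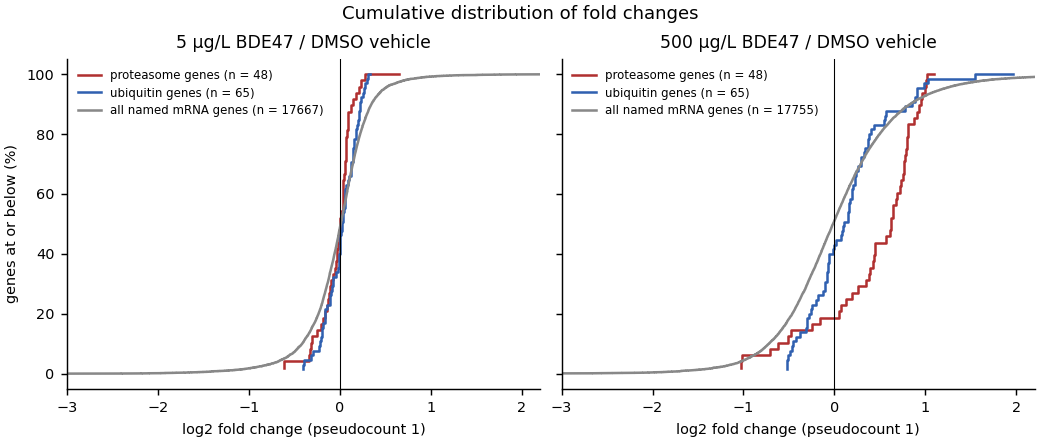
Cumulative share of genes (vertical axis, percent) at or below each log2 fold change (horizontal axis, pseudocount of 1 normalized count) for proteasome genes, ubiquitin genes and all named mRNA genes, at 5 μg/L BDE47 (left) and 500 μg/L BDE47 (right) over DMSO vehicle. At 5 μg/L the 3 medians lie near 0, and all genes spread more widely (SD 0.39) than proteasome (0.19) and ubiquitin genes (0.18). At 500 μg/L the proteasome curve runs to the right with a median of 0.63, against 0.15 for ubiquitin genes and -0.02 for all genes.

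Several genes sat on the 2-fold threshold. Just inside were psmc1b (2.01), psmb3 (2.02), ube2d1 (2.03) and psmb11 (0.485), and just outside were psmd8 (1.99), usp2a (1.99), psma5 (1.94) and psmd4a (1.93). When libraries were scaled to their total of named reads, the log2 values of psmb3, psmc1b and ube2d1 came to 0.98, 0.97 and 0.99 and these genes no longer counted as changed. Calls of single genes by this threshold are therefore fragile, and ratios are given throughout.

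The low dose left both groups of genes near DMSO vehicle. For 5 μg/L over DMSO vehicle the median log2 fold change was 0.00 for proteasome genes, 0.03 for ubiquitin genes and 0.01 for all genes. Of the 114 genes 0 were changed 2-fold, where 2.92% of all 17667 genes were (0.951% higher and 1.97% lower). Proteasome genes summed to 85592 normalized counts at 5 μg/L and 84611 in DMSO vehicle, a ratio of 1.01 (1 to 1.02), and 25 of 48 were higher, against 51.2% of all genes. At least 1.5-fold higher was psmb10 alone (3.53% of all genes), on 21 reads at 5 μg/L and 18 in DMSO vehicle and with an interval that includes 1. At least 1.5-fold lower was psma6b alone (5.8% of all genes).

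Between the doses, 500 μg/L over 5 μg/L gave medians of 0.61 for proteasome genes, 0.10 for ubiquitin genes and -0.01 for all genes. Of the proteasome genes 40 of 48 were higher at 500 μg/L than at 5 μg/L, as were 40 of 65 ubiquitin genes and 49.4% of all genes. Intervals lay above 1 for 38 proteasome and 28 ubiquitin genes (29.5% of all genes) and below 1 for 3 and 17 (28.6% of all genes). The 114 genes held more reads than most genes, with a median of 1688 against 312 for all named genes in DMSO vehicle, which narrows their intervals, so these shares are not on an equal footing. Changed 2-fold were psmb3, psmc1b, ubb and ube2d2, all higher (7.39% of all genes), and psmb9a, lower (4.1% of all genes). The 3 comparisons share libraries in pairs, so their values stand side by side and are not separate evidence.

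**Figure D2:**
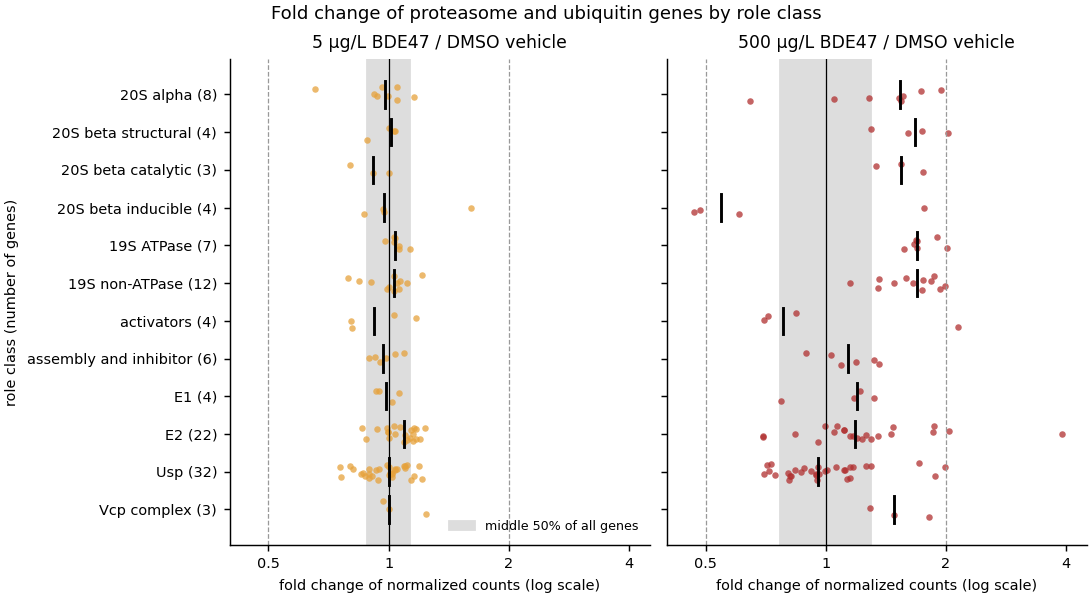
Fold change (horizontal axis, log scale) of each gene, grouped by role with the number of genes in brackets, at 5 μg/L BDE47 (left) and 500 μg/L BDE47 (right) over DMSO vehicle; points are genes, black bars are class medians, the grey band holds the middle 50% of all genes and dashed lines mark 0.5-fold and 2-fold (ubiquitin precursors, ube2cbp and psmc3ip are not drawn). At 500 μg/L all 7 genes of the 19S ATPases lie between 1.57 and 2.01, whereas 3 of 4 inducible beta genes lie below 1.

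The constitutive subunits of the core and the cap shared 1 direction, with 1 exception. Among these 34 genes 33 were higher at 500 μg/L than in DMSO vehicle (48.9% of all genes) and 25 were at least 1.5-fold higher (17% of all genes). The median log2 fold change was 0.73. Their log2 values had an SD over genes of 0.32. Only psma6b was lower. The same genes at 5 μg/L had a median log2 fold change of 0.04, with 20 of 34 higher (58.8%, against 51.2% of all genes).

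The alpha rings form the gate of the core. Their 8 genes summed to 28113 normalized counts at 500 μg/L and 18666 in DMSO vehicle, a ratio of 1.51 (1.48 to 1.53). The highest ratio was that of psma5, with 2751 normalized counts with DMSO vehicle, 3190 with 5 μg/L and 5345 with 500 μg/L, a ratio of 1.94 (1.86 to 2.03) at 500 μg/L over DMSO vehicle. It was followed by psma6a at 1.73 (1.6 to 1.86), with 1080, 1007 and 1864 normalized counts in the same order. Then came psma8 at 1.56 (1.51 to 1.62), with 4407, 4392 and 6892 in the same order. In each of these genes the 500 μg/L library stood above both others.

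At the other end of the alpha genes, psma2 had 1989 normalized counts with DMSO vehicle, 1914 with 5 μg/L and 2537 with 500 μg/L, a ratio of 1.28 (1.2 to 1.35). For psma1 the values were 2684, 2472 and 2826 in the same order and the ratio of 1.05 (0.998 to 1.11) lay within counting error of 1. The second psma6 copy, psma6b, went the other way and at both doses, with 187.3 normalized counts with DMSO vehicle, 122.4 with 5 μg/L and 121.2 with 500 μg/L. Its ratios were 0.647 (0.505 to 0.823) for 500 μg/L and 0.654 (0.517 to 0.822) for 5 μg/L. RefSeq now names this transcript psma6l, a psma6-like gene. How reads were shared between it and psma6a is not given in the sources used here.

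The beta rings carry the cutting sites. In mammals psmb5, psmb6 and psmb7 provide the chymotrypsin-like, caspase-like and trypsin-like activity. Psmb7 had 3132 normalized counts with DMSO vehicle, 3135 with 5 μg/L and 5489 with 500 μg/L, a ratio of 1.75 (1.68 to 1.83) at 500 μg/L over DMSO vehicle. Psmb5 had 1080, 986 and 1658 in the same order, a ratio of 1.54 (1.42 to 1.66). Psmb6 had 2019, 1612 and 2712, a ratio of 1.34 (1.27 to 1.42). The 3 genes were above DMSO vehicle at 500 μg/L, and against 5 μg/L their ratios were closer together, at 1.75, 1.68 and 1.68. This came from psmb6 and psmb5, which at 5 μg/L were at 0.799 (0.749 to 0.852) and 0.913 (0.839 to 0.994) of DMSO vehicle.

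The structural beta subunits have no cutting site of their own. Psmb3 had 2429 normalized counts with DMSO vehicle, 2426 with 5 μg/L and 4911 with 500 μg/L, and counted as changed with a ratio of 2.02 (1.93 to 2.12). Psmb4 followed with 3582, 3727 and 6237 normalized counts in the same order and a ratio of 1.74 (1.67 to 1.81). Psmb1 had 2334, 2393 and 3760, a ratio of 1.61 (1.53 to 1.7), and psmb2 had 1802, 1589 and 2337, a ratio of 1.3 (1.22 to 1.38). All 4 were thus highest in the 500 μg/L library.

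The inducible beta genes were the exception inside the core. In mammals their relatives replace the catalytic subunits under interferon and in immune cells, forming the immunoproteasome, which cuts peptides for antigen presentation. Psmb8, psmb9a, psmb10 and psmb11 summed to 92.44 normalized counts at 500 μg/L and 142.3 in DMSO vehicle, a ratio of 0.65 (0.489 to 0.856), where the 3 catalytic genes summed to 1.58 times DMSO vehicle (1.53 to 1.63). With 5 μg/L the sum was 141 normalized counts, 0.991 of DMSO vehicle (0.784 to 1.25). These genes rest on few reads, 180 in all with DMSO vehicle, 129 with 5 μg/L and 74 with 500 μg/L.

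Psmb11, whose closest human match in the table is PSMB9, had 59.28 normalized counts with DMSO vehicle, 51.38 with 5 μg/L and 28.73 with 500 μg/L, a ratio of 0.485 (0.29 to 0.782). Psmb9a had 21.34, 20.77 and 9.994 in the same order, the last from 8 reads. Its ratio of 0.468 met the threshold, although its interval of 0.184 to 1.06 includes 1. Psmb8 had 47.42, 45.91 and 28.73, a ratio of 0.606 (0.357 to 0.995). Psmb10 was the one that did not point down, with 14.23, 22.96 and 24.98 normalized counts and a ratio of 1.76 (0.882 to 3.52) that cannot be told from 1 at this depth. With a pseudocount of 5, psmb9a and psmb11 had log2 values of -0.81 and -0.93 and no longer counted as changed.

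RefSeq names psmb10, psmb8 and psmb11 as psmb13a, psmb8a and psmb12, and places these genes and psmb9a next to each other among the coding genes of the GRCz12tu assembly. Genes of the interferon response did not share one direction at 500 μg/L. Of 9 such genes with enough counts, isg15 (9.2-fold), stat1b (5.05-fold) and irf7 (5.01-fold) were changed upwards (7.4% of all genes) and mxc (0.395-fold) downwards (4.74% of all genes), and the list of 10 summed to 6122 normalized counts at 500 μg/L and 3542 in DMSO vehicle, with mxb at 0 reads at 500 μg/L. The 8 leukocyte markers found of 13 searched summed to 7285 normalized counts with DMSO vehicle, 5148 with 5 μg/L and 8146 with 500 μg/L, and 0 of the 8 were at 0. Most of the rise of the leukocyte sum at 500 μg/L over DMSO vehicle came from the cytokine gene il1b. It had 72.72, 13.12 and 760.8 normalized counts in the same order. Without il1b the markers summed to 7385 normalized counts at 500 μg/L and 7212 in DMSO vehicle, a ratio of 1.02 (0.991 to 1.06). The lower sum at 5 μg/L remained without il1b, at 5135 normalized counts, 0.712 of DMSO vehicle (0.687 to 0.738). The ratios of the others, 500 μg/L over DMSO vehicle, were 1.69, 1.35 and 1.4 for mpx, ptprc and csf1ra, those of lyz and mpeg1 were 1.04 and 0.98, and those of coro1a and lcp1 were 0.822 and 0.542. Their part in the values of the inducible genes was not tested.

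**Figure D3:**
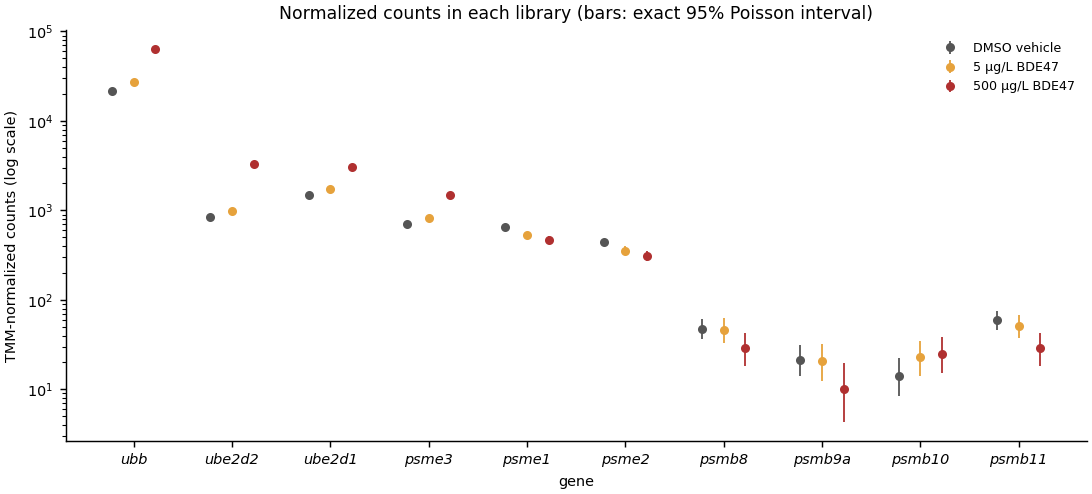
Normalized counts (vertical axis, log scale) of the polyubiquitin gene ubb, ube2d2 and ube2d1, the activator genes psme1 to psme3 and the inducible beta genes in DMSO vehicle (grey), 5 μg/L BDE47 (orange) and 500 μg/L BDE47 (red), 1 library each; bars are exact 95% Poisson intervals on the reads. Ubb, ube2d2, ube2d1 and psme3 are highest at 500 μg/L, and psmb9a reaches 9.994 normalized counts there with a wide interval.

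The 19S ATPases, which unfold the substrate, had the smallest spread among the classes at 500 μg/L over DMSO vehicle. The 7 genes summed to 34845 normalized counts at 500 μg/L and 20089 in DMSO vehicle, a ratio of 1.73 (1.71 to 1.76), and the SD of their log2 values was 0.12. The range ran from psmc1a at 1.57 (1.48 to 1.66) to psmc1b at 2.01 (1.9 to 2.12). These are copies of the same human gene, PSMC1, and their reads may have been shared in the counting. Psmc1b had 1865 normalized counts with DMSO vehicle, 1822 with 5 μg/L and 3739 with 500 μg/L, whereas psmc1a had 2044, 2310 and 3204 in the same order.

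Psmc4 had 3032 normalized counts with DMSO vehicle, 3122 with 5 μg/L and 5756 with 500 μg/L, a ratio of 1.9 (1.82 to 1.98). Psmc5, psmc2, psmc6 and psmc3 stood together at 1.69, 1.69, 1.68 and 1.66. Their intervals overlapped each other, so these 4 were not separable by counting error. With 5 μg/L the whole class lay between 0.977 and 1.13 of DMSO vehicle.

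Of the cap, the non-ATPase genes cover the lid, the scaffold and the ubiquitin receptors. All 12 were higher at 500 μg/L than in DMSO vehicle, each with an interval above 1 (31% of all genes). Psmd8, a lid subunit, had 1782 normalized counts with DMSO vehicle, 1974 with 5 μg/L and 3545 with 500 μg/L, a ratio of 1.99 (1.88 to 2.1). The ubiquitin receptor gene psmd4a had 1620, 1726 and 3129 in the same order, a ratio of 1.93 (1.82 to 2.05), and its second copy psmd4b had a ratio of 1.48 (1.39 to 1.57). The lid gene psmd11b had 832.3, 824.2 and 1557, a ratio of 1.87 (1.72 to 2.03), close to its copy psmd11a at 1.84 (1.7 to 1.99). Psmd14, the deubiquitinase of the lid, was at 1.74 (1.65 to 1.84).

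The lowest ratios in this class were those of the large scaffold subunits and of the lid gene psmd3. Psmd2 had 1981 normalized counts with DMSO vehicle, 1669 with 5 μg/L and 2269 with 500 μg/L, a ratio of 1.15 (1.08 to 1.22). Psmd3 had 1555, 1227 and 2101 in the same order, a ratio of 1.35 (1.26 to 1.44), and psmd1 had 1540, 1394 and 2096, a ratio of 1.36 (1.27 to 1.45). For each of these genes the 5 μg/L library was the lowest of the 3. At 5 μg/L over DMSO vehicle psmd3 was at 0.789 (0.732 to 0.849) and psmd2 at 0.843 (0.79 to 0.898).

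**Figure D4:**
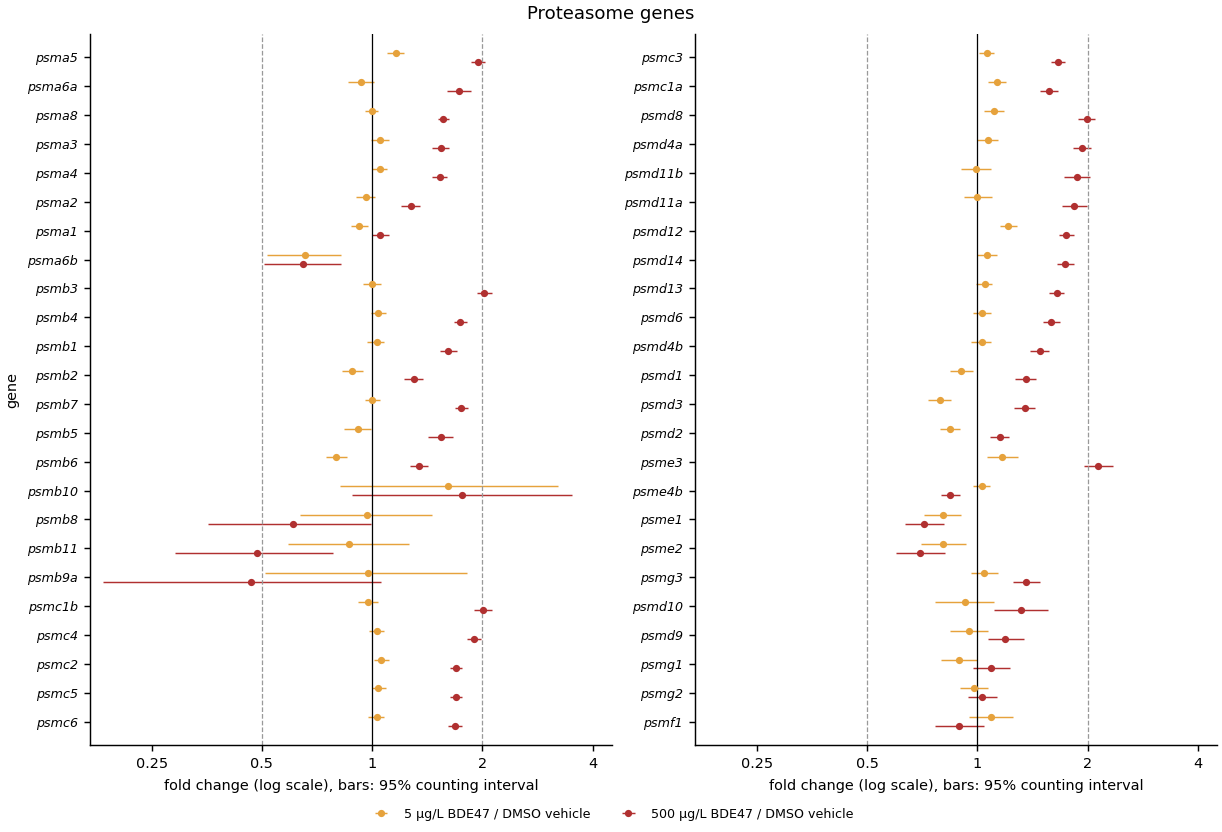
Fold change over DMSO vehicle (horizontal axis, log scale) of each of the 48 proteasome genes at 5 μg/L BDE47 (orange) and 500 μg/L BDE47 (red), with 95% counting intervals as bars; genes are ordered by class and then by their value at 500 μg/L, and dashed lines mark 0.5-fold and 2-fold. At 500 μg/L 40 of the genes lie above 1, and psma6b, psme1, psme2, psme4b, psmf1 and 3 inducible beta genes lie below it.

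Activators that replace or join the 19S cap did not follow it. Their 4 genes summed to 4466 normalized counts at 500 μg/L and 4389 in DMSO vehicle, a ratio of 1.02 (0.975 to 1.06). This even sum hid opposite directions. Psme3, whose product caps the core in the nucleus, had 700.3 normalized counts with DMSO vehicle, 821 with 5 μg/L and 1499 with 500 μg/L, a ratio of 2.14 (1.96 to 2.34) and the largest of the proteasome genes. Psme1 and psme2, which form one ring and are interferon-inducible in mammals, were lower. Psme1 had 655.2, 526.9 and 469.7 normalized counts in the same order, a ratio of 0.717 (0.633 to 0.811), and psme2 had 439.5, 355.3 and 307.3, a ratio of 0.699 (0.599 to 0.814).

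With 5 μg/L these partners were at 0.804 (0.717 to 0.901) and 0.808 (0.703 to 0.929) of DMSO vehicle, so psme1 and psme2 lay below it at both doses, by similar ratios. Psme4b, the large single-chain activator, had 2594 normalized counts with DMSO vehicle, 2665 with 5 μg/L and 2190 with 500 μg/L, a ratio of 0.844 (0.796 to 0.895). A pair of further entries matched to human PSME4 (LOC100535277 and LOC793897) had equal reads in every library, 1925 with DMSO vehicle, 1465 with 5 μg/L and 1949 with 500 μg/L. They cannot be counted as separate genes, and their ratio of 1.6 (1.5 to 1.71) went the other way from psme4b.

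Factors that build or inhibit the proteasome moved less than its subunits. The 6 genes summed to 4257 normalized counts at 500 μg/L and 3669 in DMSO vehicle, a ratio of 1.16 (1.11 to 1.21). Of them 0 were at least 1.5-fold higher (17% of all genes). Psmg3, a chaperone of alpha ring assembly, had 1001 normalized counts with DMSO vehicle, 1046 with 5 μg/L and 1362 with 500 μg/L, a ratio of 1.36 (1.25 to 1.48). The chaperones of the ATPase ring, psmd10 and psmd9, were at 1.32 (1.11 to 1.56) and 1.19 (1.07 to 1.34). Psmg1 at 1.09 (0.975 to 1.23), psmg2 at 1.03 (0.941 to 1.13) and the inhibitor psmf1 at 0.894 (0.767 to 1.04) had intervals that include 1. Outside these 6 genes, an entry matched to human PSMG4 (LOC100333944) was lower, at 0.704 (0.584 to 0.847).

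Ubiquitin itself is made from fusion genes, as chains of repeats or joined to a ribosomal protein. The polyubiquitin gene ubb had 21715 normalized counts with DMSO vehicle, 27258 with 5 μg/L and 63246 with 500 μg/L, a ratio of 2.91 (2.87 to 2.96) for 500 μg/L over DMSO vehicle and of 1.26 (1.23 to 1.28) for 5 μg/L. It was thus highest in the 500 μg/L library and above DMSO vehicle at both doses. The ribosomal fusion gene rps27a was at 1.01 (0.996 to 1.02) at 500 μg/L. Genes of this kind share near-identical ubiquitin repeats, and how the counting split reads among them is not given in the sources used here, so the ratios of single genes are uncertain.

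Of the activating enzymes, uba1 serves ubiquitin and the others serve related modifiers. Uba1 had 6778 normalized counts with DMSO vehicle, 6929 with 5 μg/L and 8010 with 500 μg/L, a ratio of 1.18 (1.14 to 1.22). Uba3, of the NEDD8 pathway, had 1084, 1154 and 1323 in the same order, a ratio of 1.22 (1.12 to 1.32). Uba2, of the SUMO pathway, was lower, with 1327, 1258 and 1023 normalized counts and a ratio of 0.771 (0.708 to 0.839). An entry matched to human UBA1 (LOC100001302) had 98.8 normalized counts with DMSO vehicle, 66.68 with 5 μg/L and 9.994 with 500 μg/L, the last from 8 reads, a ratio of 0.101 (0.0427 to 0.206).

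Among the 22 conjugating enzymes 17 were higher at 500 μg/L than in DMSO vehicle (48.9% of all genes), with a median log2 fold change of 0.24. At least 2-fold higher were 2 of them, a share of 9.09% that lies close to the 7.4% of all genes. Ube2d2, an E2 that works with many ligases, had the largest ratio of all 114 genes, with 853.6 normalized counts with DMSO vehicle, 983.9 with 5 μg/L and 3339 with 500 μg/L, a ratio of 3.91 (3.64 to 4.2). Its relative ube2d1 had 1495, 1755 and 3041 in the same order, a ratio of 2.03 (1.91 to 2.16). Both were highest at 500 μg/L and little above DMSO vehicle at 5 μg/L. Another gene of this family, ube2d4, was lower, with 163.6, 139.9 and 113.7 normalized counts and a ratio of 0.695 (0.537 to 0.893).

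RefSeq names ube2d2 and ube2d1 as ube2d2l and ube2d1b, and the table matched ube2d1 to the same human gene as ube2d4, UBE2D4. Ube2a, which in yeast and mammals ubiquitinates histones, had 1939 normalized counts with DMSO vehicle, 2333 with 5 μg/L and 3630 with 500 μg/L, a ratio of 1.87 (1.77 to 1.98), whereas its close relative ube2b was at 1.05 (0.958 to 1.15). The lowest E2 genes beside ube2d4 were ube2e3, with 2980, 2956 and 2080 in the same order and a ratio of 0.698 (0.659 to 0.74), and ube2nb, with 1374, 1286 and 1154 and a ratio of 0.84 (0.775 to 0.911). The remaining E2 genes ranged from ube2na at 0.954 to ube2j2 at 1.86.

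The E2 genes were also slightly high at 5 μg/L. There 16 of 22 were above DMSO vehicle (51.2% of all genes), or 15 under either other scaling. Intervals lay above 1 for 11 of them, where 21.5% of all genes had such intervals. Most E2 genes held more reads than most genes, which narrows their intervals, so these shares are not on an equal footing. The median log2 fold change of E2 genes was 0.13, against 0.00 for Usp genes and 0.01 for all genes. No E2 gene reached 1.5-fold, the largest being ube2k at 1.23.

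Deubiquitinases of the Usp family did not move as a group. Of 32 genes 13 were higher at 500 μg/L than in DMSO vehicle (12 or 14 under the other scalings), where 48.9% of all genes were. Their median log2 fold change was -0.07, and 11 had intervals above 1 and 11 below it (31% and 30.6% of all genes). Their sum was 40274 normalized counts at 500 μg/L and 38317 in DMSO vehicle, a ratio of 1.05 (1.04 to 1.07). At 5 μg/L 17 of 32 were above DMSO vehicle (51.2% of all genes), but 13 or 15 under the other scalings.

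A few Usp genes lay at the upper end. Usp2a had 1529 normalized counts with DMSO vehicle, 1688 with 5 μg/L and 3034 with 500 μg/L, a ratio of 1.99 (1.87 to 2.11), and the entries matched to human USP2 (LOC564054 and LOC100002673) had ratios of 2.34 (2.03 to 2.71) and 2.31 (1.87 to 2.86). Usp16, a deubiquitinase of histones, had 682.1, 744.4 and 1279 in the same order, a ratio of 1.88 (1.71 to 2.06). Usp14, which is bound to the proteasome itself, had 1283, 1430 and 2190, a ratio of 1.71 (1.59 to 1.83). Among the 32 genes with a usp symbol, usp2a, usp16 and usp14 alone were at least 1.5-fold higher. This share of 9.38% lies below the 17% of all genes.

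At the lower end usp31 had 477.4 normalized counts with DMSO vehicle, 362.9 with 5 μg/L and 333.5 with 500 μg/L, a ratio of 0.699 (0.603 to 0.808). Usp1, which acts in DNA repair, had 751.7, 697.4 and 534.7 in the same order, a ratio of 0.711 (0.633 to 0.798). Usp7, which in mammals stabilizes regulators of p53, had 2514, 2623 and 1816, a ratio of 0.722 (0.679 to 0.769). Usp31 was lower at both doses, whereas usp7 had a ratio of 1.04 (0.989 to 1.1) at 5 μg/L. Usp8, a deubiquitinase of endosomes, had the lowest ratio of the ubiquitin genes at 5 μg/L, 0.755 (0.697 to 0.817), and was at 1.15 (1.07 to 1.24) at 500 μg/L.

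**Figure D5:**
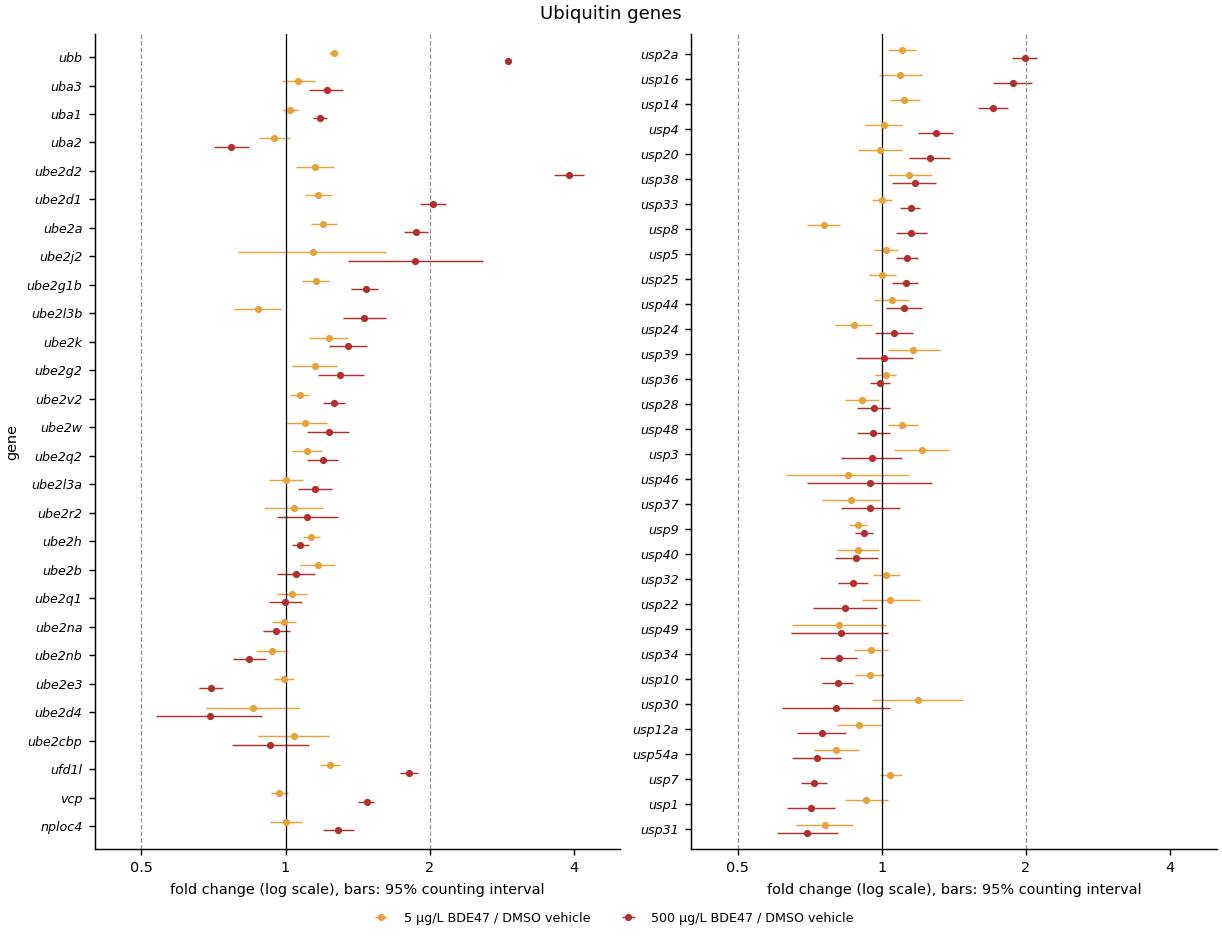
Fold change over DMSO vehicle (horizontal axis, log scale) of the ubiquitin genes reported by name or range at 5 μg/L BDE47 (orange) and 500 μg/L BDE47 (red), with 95% counting intervals as bars; the left panel holds ubb, E1, E2, ube2cbp and the Vcp complex, the right panel the Usp genes, and dashed lines mark 0.5-fold and 2-fold. Ube2d2 (3.91) and ubb (2.91) lie far to the right of the other genes, and the Usp genes spread from 0.699 to 1.99.

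The Vcp complex pulls ubiquitinated proteins out of membranes and assemblies and hands them to the proteasome. Vcp, its ATPase, had 4591 normalized counts with DMSO vehicle, 4450 with 5 μg/L and 6776 with 500 μg/L, a ratio of 1.48 (1.42 to 1.53). Its cofactor genes ufd1l and nploc4 were at 1.81 (1.73 to 1.89) and 1.29 (1.2 to 1.39), with 2846, 3525 and 5154 normalized counts for ufd1l and 1267, 1269 and 1639 for nploc4 in the same order. The complex summed to 1.56 times DMSO vehicle (1.52 to 1.6), close to the 1.58 of the proteasome genes. Ube2cbp, a ligase matched to human UBE3D, was at 0.929 (0.772 to 1.12), and psmc3ip, which is kept apart, had 64.96 normalized counts at 500 μg/L and 110.7 in DMSO vehicle, a ratio of 0.587 (0.419 to 0.812).

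Other genes of the pathway came from lists by function. A list of further proteasome subunits, regulators and associated proteins gave 10 genes (21 symbols searched). All 10 were higher at 500 μg/L than in DMSO vehicle (48.9% of all genes). Of them 3 were changed upwards (7.4% of all genes), and the median log2 fold change was 0.74. Nfe2l1, which in mammals drives transcription of proteasome genes, had 1794 normalized counts with DMSO vehicle, 2706 with 5 μg/L and 5229 with 500 μg/L, a ratio of 2.91 (2.77 to 3.07) for 500 μg/L and of 1.51 for 5 μg/L. Also changed were zfand5a, whose product binds the proteasome in mammals, at 2.91 (2.79 to 3.04) and txnl1, a thioredoxin of the cap, at 2.29 (2.17 to 2.42). The cap subunits adrm1b, shfm1 and uchl5 were at 1.32, 1.56 and 1.25, and none of them counted as changed.

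Of 21 genes for ubiquitin shuttles and for degradation at the endoplasmic reticulum, 15 were higher at 500 μg/L (48.9% of all genes). Intervals lay above 1 for 9 and below 1 for 5 (31% and 30.6% of all genes), and 7 included 1. The list also held the ribosomal fusion gene rps27a. In it 1 gene was changed, upwards (7.4% of all genes). This was sqstm1, an adaptor between ubiquitin and autophagy, with 3445 normalized counts with DMSO vehicle, 3751 with 5 μg/L and 12872 with 500 μg/L, a ratio of 3.74 (3.61 to 3.87). Of 53 ligase genes 32 were higher and 2 were changed, the muscle ligase fbxo32 at 2.27 (2.2 to 2.34) and xiap, an inhibitor of apoptosis, at 2.01 (1.89 to 2.13). Of 22 genes in a list of other deubiquitinases and related proteins, 14 were higher and 0 were changed. This list also held cops5 and cops6, and it shared uchl5 with the list of further proteasome genes. The shares changed upwards in these lists were 4.76%, 3.77% and 0%, none of them above the 7.4% of all genes. The median log2 fold changes of these lists were 0.04, 0.18 and 0.18, nearer to the 0.15 of the ubiquitin genes than to the 0.63 of the proteasome genes.

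Heat shock genes, which respond to misfolded proteins, were higher in the same library. Of 16 such genes 10 were changed upwards (7.4% of all genes) and 0 downwards (4.74% of all genes) at 500 μg/L, with a median log2 fold change of 1.19, and 0 were changed at 5 μg/L. The inducible gene hsp70 had 192.1 normalized counts with DMSO vehicle, 121.3 with 5 μg/L and 21408 with 500 μg/L, whereas the constitutive hspa8 had 48288, 47075 and 56440. The heat shock genes and the proteasome genes were thus both high in the 500 μg/L library. At 5 μg/L their median log2 fold changes over DMSO vehicle were -0.04 and 0.00. Single heat shock genes were lower there, with hsp70 at 0.632 (0.5 to 0.794). Of the 16 genes 8 had intervals below 1 and 2 above it (17.8% and 21.5% of all genes). Most heat shock genes held more reads than most genes, which narrows their intervals, so these shares are not on an equal footing. Among those below 1 were hspa8 at 0.975 and hsp90ab1 at 0.97. A link between the heat shock genes and the proteasome genes was not tested.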

How the data were processed

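Whole zebrafish larvae were sequenced as 1 pool per group, and 3 libraries (DMSO vehicle and BDE47 at 5 or 500 μg/L) were used. Per the study's methods, the authors mapped reads with BLAST to the zebrafish (Zv9) and human (hg19) genomes and deposited a signal per gene, read counts after TMM normalization. The counting tool, annotation and strand handling are not given in the sources used here. In each library 100% of the deposited values were whole multiples of the value of 1 read (largest deviation 0.000453 of a read), so reads were recovered by division. Left out were 13 mRNA entries named only by a clone prefix, which held 14.7% of reads with DMSO vehicle, 14.6% with 5 μg/L and 15% with 500 μg/L. They stayed in the normalization. Other RNA types, splicing and the blank control were not analysed here. Columns of the authors' own comparisons were not used, and 0 columns of no sample were used.

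Genes were called changed at a fold change of 2 where 1 library or both held 10 or more normalized counts. Medians are of log2 ratios with a pseudocount of 1. Values in every library are given for changed genes, the catalytic and inducible beta genes, activators, ubb, E1 genes and the Vcp complex, and within each other class for up to 3 of the largest and smallest ratios at 500 μg/L among genes with at least 100 normalized counts, some by ratio alone. The genes and lists were chosen with earlier results of these data known. Psmd14, psmd4b, psmd11a, usp8, ube2b, ube2k and entries with LOC names fell outside that rule and were named after their values were seen.

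Settings were varied by dropping the filter or raising it to 50 normalized counts, by scaling to the total or to a median log2 ratio of 0, and by using a fold change of 1.5 or a pseudocount of 5. Calls were also made with DEGseq's MARS test and with edgeR's exact test on the recovered reads, at a biological coefficient of variation (BCV) set to 0.2 or 0.4, and Benjamini-Hochberg adjustment at 0.05. These tests compare libraries, not conditions. The computations were tested on simulated data with known changes. RefSeq symbols (GRCz12tu) were matched by accession for 103 of 114 genes, of which 91 had the same symbol. Python 3.11.15, numpy 2.4.6, pandas 2.3.3, scipy 1.17.1, matplotlib 3.10.9, R 4.3.3 and edgeR 4.0.16 were used. Values of a few single genes are not reported here, although they entered the counts, sums and medians of their groups.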

Additional observations from a re-analysis of the deposited data

How the results depend on the processing

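No paired analysis was possible because each group had 1 library, and no replicate could be left out. At 500 μg/L over DMSO vehicle the median log2 fold change ran over the alternatives from 0.60 to 0.65 for proteasome genes and from 0.11 to 0.16 for ubiquitin genes, and at 500 μg/L over 5 μg/L from 0.60 to 0.65 and from 0.09 to 0.11. At 5 μg/L over DMSO vehicle it lay near 0, from -0.02 to 0.01 for proteasome genes, so that its sign turned, and from 0.01 to 0.03 for ubiquitin genes. The count of proteasome genes higher was 40 of 48 at 500 μg/L over DMSO vehicle under each scaling. Counts of changed genes did depend on the settings. At 500 μg/L over DMSO vehicle the 5 changed proteasome genes became 3 with scaling to the total, 3 with a pseudocount of 5, 31 at a fold change of 1.5, and 0 with edgeR's exact test at an assumed BCV of 0.2 and 0 at 0.4, and the 3 changed ubiquitin genes became 2 with scaling to the total, 4 with scaling to a median of 0, 9 at a fold change of 1.5 and 0 with edgeR at a BCV of 0.4. Scaling to a median of 0 raised the changed genes of both groups together to 10 in place of 8, adding psmd8 and usp2a. At a BCV of 0.2 edgeR called ubb and ube2d2. At 5 μg/L over DMSO vehicle a fold change of 1.5 gave 2 proteasome genes in place of 0. At 500 μg/L over 5 μg/L the 3 changed proteasome genes became 28 at a fold change of 1.5 and 0 with edgeR at a BCV of 0.2 and 0 at 0.4, and the 2 changed ubiquitin genes became 11 at a fold change of 1.5, 1 (ube2d2) with edgeR at a BCV of 0.2 and 0 at 0.4. Over all genes edgeR called 740 at a BCV of 0.2 and 20 at 0.4 for 500 μg/L over DMSO vehicle, 5 and 0 for 5 μg/L over DMSO vehicle, and 618 and 29 for 500 μg/L over 5 μg/L, against 2155, 516 and 2035 by fold change alone. A fold change of 1.5 gave 5658, 1648 and 5248 of all genes in the same comparisons. The genes with enough counts numbered 17755, 17667 and 17704. Of 1026 log2 values of single genes under alternatives, 6 moved beyond counting error, ubb among them, with scaling to the total, and 0 values of changed genes turned sign. Genes near a ratio of 1 did turn, 8 with scaling to the total and 6 with scaling to a median of 0 at 5 μg/L over DMSO vehicle, 1 and 2 at 500 μg/L over DMSO vehicle, and 1 and 0 at 500 μg/L over 5 μg/L. The other scalings moved the median of all genes by at most 0.04 on the log2 scale. Depth limits the inducible beta genes, which held 74 reads at 500 μg/L. The sums without ubb and without il1b were added after the values were seen.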
